A study of Rattus norvegicus with 16 samples.

Results

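A group of 80 transcripts was present in rat neural stem cells at 12 h and mostly gone by 48 h. They were chosen by their CPM (a transcript's count scaled to a fixed library total) from a table of 41078 transcripts. The rule asked for a mean of at least 5 CPM over the 8 libraries at 12 h and a log2 ratio of the 48 h to the 12 h mean of -2 or less, with 1 CPM added to both means. It also asked that every library at 48 h lay below every library at 12 h. The time difference is therefore how the group was defined, and its values are given as a description with no test. The rule did not use the labels of stiffness or RGD, and those comparisons were tested. They are not independent of the rule, since its means pool the same libraries. A transcript high at 12 h in soft gels only, or in stiff gels only, can pass it through that gel.

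The libraries came from adult rat hippocampal neural stem cells that differentiated in 3D gels made from hyaluronic acid, in DMEM-F12 with N2, 1 μM retinoic acid and 1% fetal bovine serum, a medium shared by all groups. Gels were soft (100 Pa) or stiff (1.2 kPa), and were made without or with RGD, a short peptide that integrin adhesion receptors bind. RNA was taken at 12 h (D0 in the sample titles) or 48 h (D2), and the labels do not say from which event the hours were counted. The 8 groups were thus soft or stiff gel, without or with RGD, at 12 h or 48 h, with 2 libraries each and 16 in all. No strain, sex, cell line or culture of origin is given, so replicates may be technical, and each p-value reflects no more than how far these libraries scatter. Below, libraries are named by gel and replicate number, with "plain" for gels without RGD, as in soft plain 1 or stiff RGD 2.

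Adult hippocampal neural stem cells divide in the dentate gyrus and give rise to neurons and, in culture, also to glia. The stiffness of their support is known to bias that choice, and integrins binding RGD are one way in which cells sense a matrix. The level of an mRNA reflects both its synthesis and its decay, so that a short-lived mRNA can disappear soon after its gene is switched off, while a long-lived one fades slowly. In bulk RNA a fall from fewer cells that hold a transcript and a fall from less RNA per cell cannot be told apart.

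The deposited table names rows by versioned Ensembl transcript identifiers and pairs none with a gene name. Of these identifiers, 0 matched the reference table used here, so no function can be given for a member and the identity of the cells could not be checked against marker genes. Some members may be isoforms of 1 gene and share reads. Total counts ran from 1829779 to 3420786 per library, and 45.6 to 55.2% of them fell on 2 very abundant transcripts, neither of which is a member. All 80 members had enough counts to enter the fit of 7876 transcripts.

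Each member was found in all 8 libraries at 12 h, which the rule fixes, and had at least 4 counts in each. Their mean levels at 12 h ranged from 6.45 to 155.5 CPM with a median of 23.6, so they were mostly transcripts of low to middling abundance. Only 15 stood at 50 CPM or more and 5 at 100 CPM or more, while 46 lay between 10 and 50 CPM and 19 below 10 CPM. At 48 h the means ranged from 0.186 to 30.2 CPM with a median of 2.0. The 5 most abundant members made up 25.5% of the summed level at 12 h and 33.3% of what was left at 48 h.

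**Figure D1:**
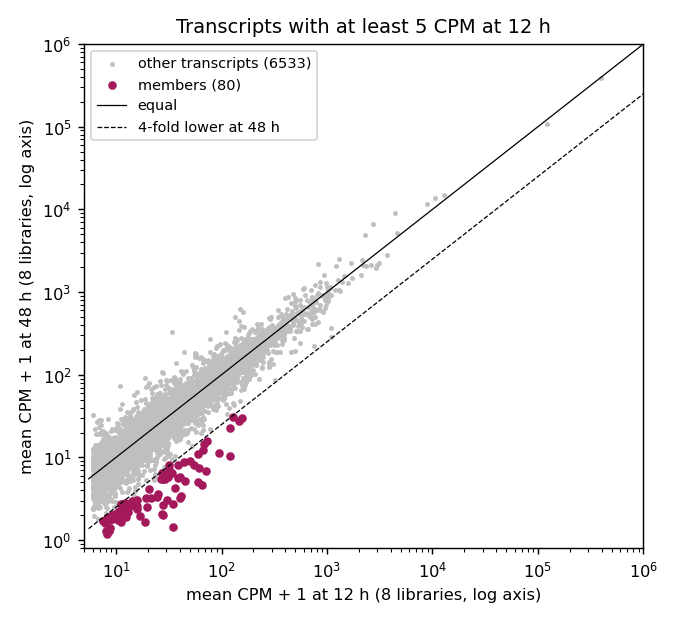
Mean CPM + 1 of each transcript with at least 5 CPM at 12 h, at 12 h (x axis) and at 48 h (y axis), both on log axes, over 8 libraries each. The 80 members (purple points) lie below the dashed line of a 4-fold fall, which is the threshold of the rule.

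The group as a whole fell to 13.5% of its 12 h level. Summed over the members, the level was 2612 CPM on average at 12 h and 353 CPM at 48 h. Single members kept between 1.32% and 23.9% of their 12 h mean, with a median of 10.9%. The log2 ratios of the rule, which add 1 CPM to both means, had a median of -2.46. They were -3 or less in 18 of the 80 members and -4 or less in only 1. The added 1 CPM shrinks the ratio most where levels are low, so -3 is not the same as an 8-fold fall of the mean.

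Few members vanished from the 48 h libraries altogether. At 48 h, 50 of the 80 still had at least 1 count in all 8 libraries, and 30 had 0 counts in 1 to 5 of them. None was at 0 in more than 5 of the 8. A count of 0 in a 48 h library allows a level of up to 1.03 to 1.47 CPM (3 counts of its total, counting error only). The mean at 48 h was under 1 CPM for 22 members, from 1 to 5 CPM for 37, and 5 CPM or more for 21. Summed over the 8 libraries at 48 h, a member had 4 to 626 counts, against 124 to 2989 at 12 h.

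**Figure D2:**
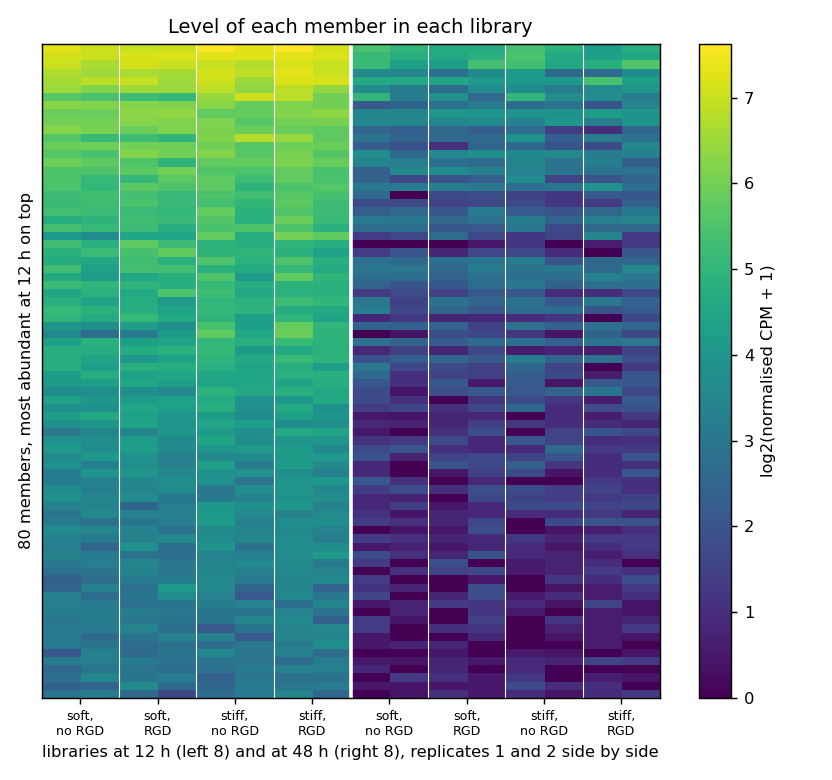
Level of each of the 80 members (rows, sorted by their 12 h mean) in each of the 16 libraries (columns), as log2(normalised CPM + 1). The 8 columns at 12 h on the left are brighter on average than the 8 at 48 h on the right in every row, as the rule requires, and the darkest cells at 48 h are counts of 0.

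At the edge of the rule, the 3 members nearest the threshold had log2 ratios of -2.01, -2.03 and -2.06, and the 3 nearest transcripts left out had -1.94, -1.95 and -1.97. Another 4 transcripts passed both thresholds on the means and were left out because 1 or more libraries overlapped between the times. Their log2 ratios were -2.09 to -2.13. The threshold cuts through a continuous range. A further 134 transcripts with at least 5 CPM at 12 h had ratios above -2 and up to -1, without overlap. Below they are said to have fallen 2- to 4-fold, which holds for means with 1 CPM added. In the fit across all 7876 transcripts, edgeR called 19.6% lower at 48 h, and all 80 members were among them, which the rule fixes.

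The most abundant member, ENSRNOT00000017635.6, was still well measured at 48 h, which few members were: only 4 of the 80 kept 20 CPM or more. Levels from here on are CPM scaled with TMM factors, which correct for the composition of each library. At 12 h its libraries read 152 and 131 CPM in soft gels without RGD, 125 and 128 in soft gels with RGD, 190 and 159 in stiff gels without RGD, and 197 and 140 in stiff gels with RGD. At 48 h they read 41.9 and 31.0, 24.9 and 24.6, 40.2 and 29.7, and 17.6 and 26.1 CPM in the same order. Its mean went from 153 ± 27.7 to 29.5 ± 8.19 CPM (SD, n = 8 each). The times did not overlap, as the rule requires, and at 12 h 3 of the 4 stiff libraries were above all soft ones.

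The member with the largest fall, ENSRNOT00000022549.4, was nearly at 0 by 48 h. At 12 h it had 84 and 54 counts in soft gels without RGD, 94 and 70 in soft gels with RGD, 69 and 69 in stiff gels without RGD, and 93 and 93 in stiff gels with RGD. At 48 h the counts were 0 and 0, 0 and 1, 3 and 0, and 1 and 4 in the same order. Over the 8 libraries this is 626 counts at 12 h and 9 at 48 h, or 33.7 ± 8.89 and 0.463 ± 0.609 CPM (SD, n = 8 each). All but 1 of the 9 remaining counts were in stiff gels.

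A fall in every kind of gel is fixed by the rule, since every library at 48 h lies below every library at 12 h. As for its size, with 2 libraries at each time, all 80 members had a log2 ratio of -1 or less in each of the 4 gels. The median log2 ratio was -2.45 in soft gels without RGD and -2.35 in soft gels with RGD. It was -2.65 in stiff gels without RGD and -2.76 in stiff gels with RGD. A log2 ratio of -2 or less was reached by 64 and 60 of the 80 members in soft gels without and with RGD, and by 74 and 76 in stiff gels. These counts describe the contrast that chose the members, and whether the fall depended on stiffness was tested for each member as the difference of the stiffness effects at 48 h and 12 h. That test called 0 of the 80 (edgeR, adjusted over all 7876 transcripts), and 0% over all transcripts. Before adjustment, 2 members had a p under 0.05 (2.5%), against 8.8% of all transcripts, and DESeq2 called 0 members. The median of the members' differences was -0.15 (log2), with 50 of 80 below 0, against -0.001 for all transcripts and 0.23 for the 134 that fell 2- to 4-fold. Its sign rests on single libraries: it was 0.18 without soft plain 1 and 0.03 without soft RGD 2 at 48 h, and 0.02 without stiff plain 1 at 12 h. The smallest p among members was that of ENSRNOT00000022549.4 (edgeR adjusted p = 0.487), which rests on its 9 counts at 48 h.

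Stiffness at 12 h was the factor for which members passed the test. Stiff against soft gels, averaged over RGD, 4 of the 80 members rose and 0 fell in edgeR's quasi-likelihood fit, with p-values adjusted by Benjamini-Hochberg over all 7876 transcripts. That is 5% of the members higher, against 0.609% of all transcripts higher and 0.14% lower. At an unadjusted p under 0.05 there were 16 members, 15 of them higher in stiff gels, or 20%, against 13% of all transcripts. In 10 members (12.5%) all 4 stiff libraries lay above all 4 soft ones, against 5.78% of all transcripts, and in 0 members did they lie below, against 5.24%. The 4 called members were among these 10. The 12 h levels compared here also entered the rule, which pools soft and stiff libraries. Among the 4 called members, ENSRNOT00000018853.7 reached the ratio of the rule only with its stiff libraries.

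ENSRNOT00000004279.5 had the largest stiffness difference of the members. At 12 h, soft plain 1 and 2 read 10.8 and 5.64 CPM, and soft RGD 1 and 2 read 7.87 and 16.8 CPM. Stiff plain 1 and 2 read 53.1 and 22.3 CPM, and stiff RGD 1 and 2 read 57.7 and 30.4 CPM. Every stiff library was above every soft one, with 459 counts over the stiff and 81 over the soft libraries. Mean levels were 10.3 ± 4.86 in soft and 40.9 ± 17.2 CPM in stiff (SD, n = 4 each), a log2 fold change of 1.99 ± 0.33 (SE, edgeR adjusted p = 0.00754). The fitted change was 2.16 ± 0.48 without RGD and 1.82 ± 0.46 with RGD (SE). At 48 h only 32 counts were left over 8 libraries, 13 in soft and 19 in stiff gels.

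ENSRNOT00000018853.7 was also higher in all 4 stiff libraries, by a smaller factor. It passed the rule through its stiff libraries, with a log2 ratio of -2.35 over both gels. Its soft libraries alone averaged 14.8 CPM at 12 h and 3.65 CPM at 48 h, which falls short of a log2 ratio of -2. The stiffness difference of this member is therefore part of why it was chosen. At 12 h it read 15.4 and 12.8 CPM in soft plain 1 and 2, and 18.5 and 12.6 CPM in soft RGD 1 and 2. It read 41.1 and 18.9 CPM in stiff plain 1 and 2, and 55.3 and 31.6 CPM in stiff RGD 1 and 2. The lowest stiff library was just above the highest soft one. Mean levels were 14.8 ± 2.77 in soft and 36.7 ± 15.4 CPM in stiff (SD, n = 4 each, log2 1.28 ± 0.27 SE, edgeR adjusted p = 0.0293). By 48 h its soft libraries spanned 1.70 to 4.40 CPM and its stiff ones 4.20 to 6.36 CPM, with a stiffness difference of 0.53 ± 0.39 (log2, SE, edgeR adjusted p = 0.786).

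In the third called member, soft libraries averaged 17.9 ± 4.46 and stiff ones 49.5 ± 16.3 CPM (SD, n = 4 each, log2 1.46 ± 0.31 SE, edgeR adjusted p = 0.0373). Its soft libraries spanned 12.3 to 21.6 CPM and its stiff ones 26.1 to 64.0 CPM. In the last called member, soft libraries averaged 38.0 ± 7.37 and stiff ones 79.7 ± 23.5 CPM (SD, n = 4 each, log2 1.06 ± 0.24 SE, edgeR adjusted p = 0.0412), with soft libraries from 31.1 to 48.3 CPM and stiff ones from 52.6 to 107.9 CPM. In all 4 members the SD in CPM was larger in stiff than in soft gels, where the mean was lower. At 48 h all 4 stood lower in every library than in any library at 12 h, as the rule requires.

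**Figure D3:**
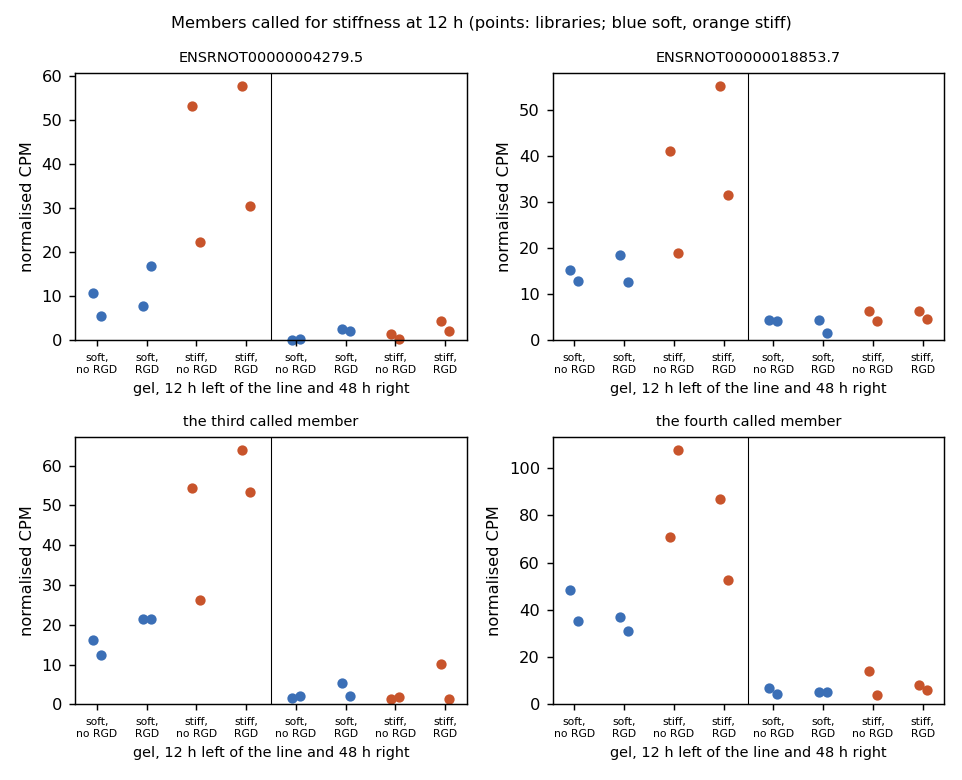
Normalised CPM in each of the 16 libraries for the 4 members called for stiffness at 12 h, by gel and time, with soft gels in blue and stiff gels in orange. At 12 h (left of each line) every stiff library lies above every soft one, and at 48 h (right) all libraries are low.

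Of the other 76 members, 12 had an unadjusted p under 0.05, 11 of them higher in stiff gels, with edgeR adjusted p-values of 0.0618 to 0.383. Over all 80 the log2 fold change at 12 h ran from -0.52 to 1.99 with a median of 0.195 and a median SE of 0.28. It was above 0 for 58 members, 72.5%, while over all transcripts 49.6% were above 0 and the median was -0.003. Without RGD 53 members were higher in stiff gels and with RGD 53 were, from separate libraries. In 41 members the sign was positive in both and in 15 negative in both, which is 51.3% and 18.8% of the members, against 31.8% and 33.0% of all transcripts. Among the 134 transcripts that fell 2- to 4-fold, 69 (51.5%) were higher in stiff gels, with a median of 0.005 (log2), and edgeR called 2. No test was made of the list as a whole, and the rule drew on the same 12 h values, so these shares are a description.

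**Figure D4:**
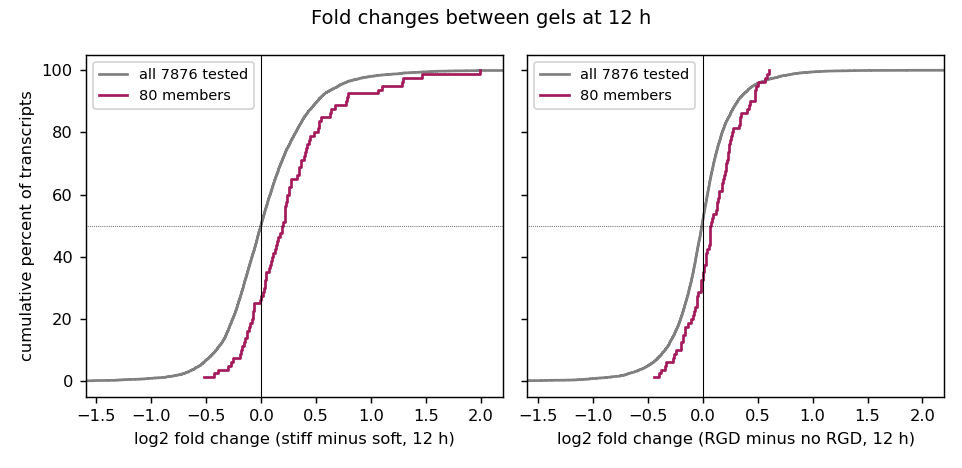
Cumulative percent of transcripts by log2 fold change at 12 h, for stiffness (left) and RGD (right), for the 80 members and all 7876 tested transcripts. The curve of the members lies to the right of the other over most of its range, with a median of 0.195 against -0.003 for stiffness and of 0.073 against -0.007 for RGD.

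The members were also split by the log2 ratio of the rule and by their level at 12 h. Of the 62 members with a ratio above -3, 49 were higher in stiff gels at 12 h, with a median log2 fold change of 0.22. Of the 18 with a ratio of -3 or less, 9 were higher and the median was 0.01, although 3 of the 4 called members were among these. The split by ratio also follows abundance, since the median 12 h mean was 37.2 CPM in the 18 and 14.8 CPM in the 62. By abundance, 13 of 19 members under 10 CPM, 35 of 46 from 10 to 50 CPM and 10 of 15 at 50 CPM or more were higher in stiff gels. These splits were made after the values were seen and were not tested.

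Depth and composition moved with stiffness at 12 h. The stiff libraries had 2294844 to 3420786 counts and the soft ones 1829779 to 2157015, without overlap, and the 2 abundant transcripts took 45.6 to 51.9% in stiff and 50.8 to 55.2% in soft libraries. After every library had been thinned to the smallest total, edgeR again called the same 4 members (5%, against 0.764% of all transcripts). The median log2 fold change was then 0.15. With the 2 abundant transcripts left out edgeR called the same 4 (5%, against 0.733% of all transcripts), with a median of 0.20. When the 12 h libraries were fitted alone, 8 members were called, all higher in stiff gels and these 4 among them. That is 10% of the members against 5.88% of all transcripts in that fit, where the fit of both times called 5% against 0.749%.

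Single libraries decided the count of 4. Left out one at a time, stiff RGD 1, soft plain 1, soft plain 2 and soft RGD 1 at 12 h each brought it to 0, and the calls over all transcripts fell from 59 to 0, 1, 0 and 6. It fell to 1 without soft RGD 2 (4 over all transcripts) and to 2 without stiff plain 1 (55), both at 12 h. The highest adjusted p over these fits was 0.109 for ENSRNOT00000004279.5, whose log2 fold change was between 1.62 and 2.31 under all settings, and 0.288 for ENSRNOT00000018853.7, whose log2 fold change was at least 0.95. The other two reached 0.209 and 0.315, and none of the 4 changed direction. The share of members higher in stiff gels was 63.8% without stiff RGD 1 and 61.3% without stiff plain 1, with medians of 0.12 and 0.11.

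The summed level of the members shows the same libraries at the top. At 12 h it was 2392 and 2208 CPM in soft plain 1 and 2, and 2496 and 2363 CPM in soft RGD 1 and 2. It was 2975 and 2428 CPM in stiff plain 1 and 2, and 3155 and 2583 CPM in stiff RGD 1 and 2. Soft libraries averaged 2365 ± 119 and stiff ones 2785 ± 337 CPM (SD, n = 4 each). The stiffnesses overlapped, because stiff plain 2 lay below soft RGD 1. At 48 h the soft libraries spanned 297 to 408 CPM and the stiff ones 302 to 449 CPM, so that they overlapped over most of their range.

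**Figure D5:**
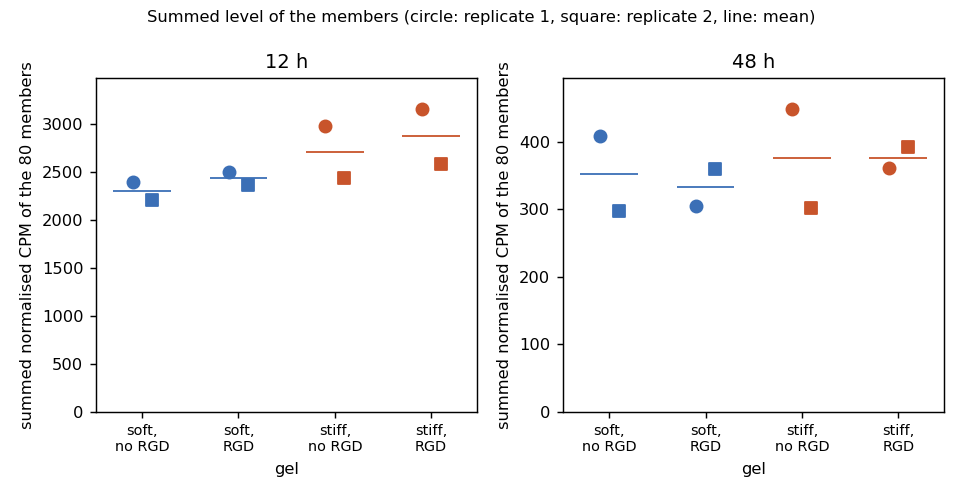
Summed normalised CPM of the 80 members in each library at 12 h (left) and 48 h (right), by gel, with a line at the mean of each group of 2 libraries. At 12 h stiff plain 1 and stiff RGD 1, at 2975 and 3155 CPM, stands above all other libraries, and at 48 h soft and stiff gels overlap (the vertical scales differ).

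Replicates of a stiff gel differed for many members at once. At 12 h, 58 of 80 members (72.5%) were higher in stiff RGD 1 than in stiff RGD 2, and 59 (73.8%) were higher in stiff plain 1 than in stiff plain 2. Over all transcripts these shares were 50.7% and 48.8%. Between the soft replicates, 46 members (57.5%) were higher in soft plain 1 and 50 (62.5%) in soft RGD 1. The highest 12 h value of 29 members (36.2%) was in stiff RGD 1, against 13.5% of all transcripts, and that of 18 members (22.5%) was in stiff plain 1, against 10.7%. The median coefficient of variation beyond counting noise, fitted by edgeR over all 16 libraries of both times, was 0.213 for members. For all transcripts, which were not matched to the members in abundance, it was 0.185.

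For RGD at 12 h no member passed the test. EdgeR called 0 of the 80 for RGD against no RGD, averaged over stiffness, and 0% of all transcripts. Before adjustment, 1 member had a p under 0.05 (1.25%), against 3.16% of all transcripts, and DESeq2 called 0. The log2 fold changes ran from -0.44 to 0.60 with a median of 0.07 and a median SE of 0.27, and 53 of 80 were above 0 (66.3%, against 48.5% of all transcripts). The 134 transcripts that fell 2- to 4-fold had 63.4% above 0 and a median of 0.085. The members' share was 53.8% without stiff plain 2 or without stiff RGD 1 at 12 h, with medians of 0.013 and 0.022. In 2 members (2.5%) the 4 libraries with RGD did not overlap those without, against 2.09% of all transcripts.

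The member with the smallest p for RGD was ENSRNOT00000003812.5. Its plain libraries at 12 h read 57.8 and 57.9 CPM (soft) and 53.1 and 56.0 CPM (stiff). Its RGD libraries read 77.5 and 81.1 CPM (soft) and 73.1 and 80.1 CPM (stiff). The libraries with and without RGD did not overlap, in soft and in stiff gels. The means were 56.2 ± 2.26 and 77.9 ± 3.57 CPM (SD, n = 4 each), and the log2 fold change of 0.47 ± 0.15 (SE) had an edgeR adjusted p of 1. At 48 h the means were 12.0 ± 2.05 and 15.7 ± 1.68 CPM, again with all libraries with RGD above those without. The 48 h log2 fold change was 0.40 ± 0.19 (SE, edgeR adjusted p = 0.317).

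Whether the stiffness effect at 12 h differed with RGD was tested as an interaction. The difference between the effects with and without RGD was called for 0 of the 80 members by edgeR and DESeq2, and for 0% of all transcripts. At an unadjusted p under 0.05 there was 1 member (1.25%, against 1.69% of all transcripts). This was ENSRNOT00000016797.6, which at 12 h read 61.0 and 52.8 CPM in soft plain 1 and 2, and 44.9 and 30.5 CPM in soft RGD 1 and 2. It read 53.9 and 55.6 CPM in stiff plain 1 and 2, and 69.4 and 57.3 CPM in stiff RGD 1 and 2. RGD libraries were thus the lower ones in soft and the higher ones in stiff gels, with a log2 difference of 0.80 ± 0.37 (SE, edgeR adjusted p = 1). The median SE of this difference over the members was 0.55.

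Stiffness and RGD effects were less precisely measured at 48 h, when little was left. The median SE of the members' stiffness effect was 0.54 (log2) at 48 h and 0.28 at 12 h, while over all transcripts it was 0.24 at both times. For stiffness at 48 h edgeR called 0 of the 80, as did DESeq2, and 0% of all transcripts. Before adjustment, 3 members had a p under 0.05 (3.75%), all higher in stiff gels, against 7.33% of all transcripts. The median log2 fold change was 0.145, with 50 of 80 above 0 (62.5%, against 77.6% of the 134 transcripts that fell 2- to 4-fold and 50.8% of all), and the smallest p was that of ENSRNOT00000022549.4, with 1 count over the soft and 8 over the stiff libraries (edgeR adjusted p = 0.581).

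For RGD at 48 h edgeR called 0 of the 80, against 0.0508% of all transcripts. At an unadjusted p under 0.05 there were 11 members, 13.8%, with 6 higher and 5 lower, against 15.1% of all transcripts. The smallest p was that of the most abundant member, ENSRNOT00000017635.6, which was lower with RGD. Its 4 libraries without RGD spanned 29.7 to 41.9 CPM and the 4 with RGD 17.6 to 26.1 CPM, without overlap. The means were 35.7 ± 6.27 and 23.3 ± 3.86 CPM (SD, n = 4 each; log2 -0.60 ± 0.18 SE, edgeR adjusted p = 0.132). DESeq2 called this member (adjusted p = 0.0485) and gave no other member an adjusted p. It called 7.63% of the 1101 transcripts to which it gave one. At 12 h the same member showed no such order, with a log2 fold change of -0.11 ± 0.15 (SE).

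Whether RGD changed the fall was tested as the difference of its effects at 48 h and 12 h. EdgeR and DESeq2 called 0 of the 80, and edgeR 0.0127% of all transcripts. At an unadjusted p under 0.05 there were 6 members, 7.5%, against 6.42% of all transcripts, and the median difference was 0.06, with a range of -0.16 to 0.27 when each library was left out. The smallest p was that of ENSRNOT00000066277.2 (edgeR adjusted p = 0.746). Its 48 h level rests on 2 counts over the libraries without RGD and 11 over those with RGD, against 100 and 95 counts at 12 h.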

How the data were processed

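The authors deposited raw whole-number counts per transcript for 16 libraries of 3′ tag sequencing, in which reads come from transcript ends. The tools were HISAT2 2.1.0, HTSeq and FastQC with build rn6, per the submitters' processing notes. For annotation release, strand, isoform assignment and UMIs, the answer is not given in the sources used here. All columns matched sample titles. Members were found on CPM by column total (minimum 5, pseudocount 1, log2 ratio at most -2). Members and lists were chosen with earlier results of these data known. Gene and marker lists could not be used, since 0 identifiers matched the 47357 reference genes.

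Tests used edgeR 4.0.16 (limma 3.58.1, R 4.3.3): expression filter (minimum count 10, total 15), TMM factors, 1 mean per group over 16 libraries, robust quasi-likelihood tests and Benjamini-Hochberg adjustment over 7876 transcripts (threshold 0.05). The SE is the fold change over the root of F. The fit was checked on simulated data in which all transcripts had the same spread, unlike here. Error rates in these data were not tested. For each of 7 contrasts, the text names at most the 2 called members of smallest adjusted p in each direction, or else the 1 member of smallest p, besides the most abundant and the most reduced member. Alternatives were RLE factors, DESeq2 1.42.0, no filter, a replicate block, libraries of one time and leaving out each library. Thinning and removal of the 2 most abundant transcripts were added after seeing the data. Same-group replicates differed by more than sampling noise (chi-square per degree of freedom 2.68 to 14.92). Counting limits cover counting error only.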

Additional observations from a re-analysis of the deposited data

Results flagged for a closer look

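Each named member and the summed level were searched for a library far from the rest of its group, in 80 groups of 4 or 8 libraries. Of these 9 stood out, and chance alone gives about 1 in 20. None was in the summed level or in a group that carried a call.

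ENSRNOT00000022549.4 gave 3. At 48 h it read 0.424 CPM in soft RGD 2, where the other soft libraries had 0, and 1.36 CPM in stiff plain 1, where the other libraries without RGD had 0. At 12 h it read 52.8 CPM in soft RGD 1, against 26.1 to 37.9 CPM in the other 7 libraries.

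ENSRNOT00000018853.7 gave 3, all at 48 h. Soft RGD 2 read 1.70 CPM, below the other soft libraries (4.17 to 4.39 CPM) and below all other 48 h libraries (4.17 to 6.36 CPM). Stiff plain 1 read 6.33 CPM, above the others without RGD (4.17 to 4.35 CPM). ENSRNOT00000066277.2 gave 2, both for soft RGD 2 at 48 h, with 2.55 CPM against 0 to 0.366 CPM in soft gels and 0 to 1.07 CPM in all others. ENSRNOT00000003812.5 gave 1, with 18.1 CPM in stiff RGD 1 at 48 h against 13.6 to 14.3 CPM in the other stiff libraries. The libraries that stood out at 48 h had 1 to 37 counts.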

How the results depend on the processing

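The number of members was 78 with TMM-scaled CPM, 87 with a pseudocount of 0.5, 61 with a minimum of 10 CPM and 102 on the column total without the 2 most abundant transcripts. It was 74 to 86 with each library left out. Members called for stiffness at 12 h numbered 4 in the full fit (59 over all transcripts), 8 when the 12 h libraries were fitted alone (432), and 0 to 6 with each library left out (0 to 105). The other settings gave 4 or 5 (57 to 204). For RGD at 48 h the count was 0 (4 over all transcripts), but 1 by DESeq2 (ENSRNOT00000017635.6, 84 over all) and 1 without a filter on low counts (ENSRNOT00000004279.5, higher with RGD, edgeR adjusted p = 0.00722, 213 over all, named after its value was seen), and 0 to 1 with each library left out. For the other 5 contrasts it was 0 under every setting run. With the replicate block 5 members were called for stiffness at 12 h, among them the 4 (6.25%, against 1.21% of all transcripts). For the other contrasts 0 members and at most 0.114% of all transcripts were called with the block. Replicate numbers were not taken to pair the libraries, since over 28 pairs of groups the correlation of replicate differences ran from -0.41 to 0.39, and only 8 pairs exceeded 0.1. Members were nevertheless higher in replicate 1 more often than not in all 4 gels at 12 h (57.5 to 73.8%), and in 36.3 to 62.5% of cases at 48 h. No named fold change reversed. The median stiffness effect of the members at 12 h was 0.11 to 0.22 under all settings. With each library left out, that at 48 h was -0.01 to 0.36 and that of RGD at 48 h -0.04 to 0.32. The medians of the differences between times were -0.25 to 0.18 for stiffness and -0.16 to 0.27 for RGD, so none of these 4 has a settled sign. Depth limits the 48 h values: a median of 42 counts per member over 8 libraries.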
